A study of Mus musculus with 6 samples.

Results

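The small RNA machinery was followed through 9 genes, chosen by their symbols from the 23284 gene symbols of the count tables. They are the 4 Argonautes (Eif2c1, Eif2c2, Eif2c3 and Eif2c4, the older symbols of Ago1 to Ago4), the nuclear processing enzyme Drosha and its partner Dgcr8, the cytoplasmic enzyme Dicer1 and its partner Tarbp2, and the helicase Mov10. Transcripts were measured by RNA-seq in mouse oocytes of full size that still held a germinal vesicle, the nucleus of a cell arrested in meiotic prophase. The Lsd1 KO group held 3 samples of oocytes lacking Lsd1 (gene symbol Kdm1a), a histone lysine demethylase, and the Control group held 3 samples of the control genotype. All 6 samples were of Mixed C57BL/6-129 background, came from females 4 to 6 weeks old, were collected 48 hours after a 5 IU dose of equine gonadotrophin (pregnant mare's serum), and pooled 100 oocytes each. Which exons were deleted, and whether and where a Cre transgene was active, was not given in the sources used here, nor was the genotype of the controls beyond the word Control.

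MicroRNAs are cut from long nuclear transcripts by DROSHA with its RNA-binding partner DGCR8, exported as hairpins, cut again by DICER with TARBP2, and loaded into an Argonaute protein, which they guide to matching messenger RNAs. Ago2 is the mouse Argonaute best known for cutting its target, whereas all 4 can repress by recruiting GW182 proteins, deadenylases and decapping factors. In mouse oocytes DICER is known above all for making endogenous small interfering RNAs from double-stranded RNA, and microRNA activity is known to be weak there. The libraries measured the transcripts of these genes, not mature small RNAs or proteins.

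Library totals ran from 10735422 to 13035045 counts. Levels are in CPM, read counts relative to the TMM-scaled library size. Fold changes divide Lsd1 KO by Control and are given on the log2 scale ± SE, with p adjusted over the 12935 genes tested by edgeR's quasi-likelihood test (n = 3 per genotype). Kdm1a itself fell from 44.4 to 73.9 CPM in Control to 2.80 to 3.77 CPM where it was deleted (log2 -4.28 ± 0.27, edgeR adjusted p = 4.58e-06), and no library went against its label. Control replicate 3 stood apart on the second principal component (15.2% of the variance) and Lsd1 KO replicate 2 on the third (14.8%), and results that change without either library are given both ways. The 12 oocyte markers were abundant in every library, and their sum moved with genotype without overlap (37044 to 40155 CPM in Lsd1 KO, 24822 to 29164 CPM in Control). The most abundant were Gdf9 (14482 to 16950 CPM, against 5569 to 7015 CPM) and Zp2 (4848 to 5996 CPM, against 2895 to 4832 CPM). Gdf9, Oosp1 and Dppa3 were called higher, as were 11.0% of all genes tested, and the other 9 did not pass. Without Gdf9 and Zp2 the sums overlapped (17606 to 18485 CPM, against 14912 to 18763 CPM).

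Of the 9 genes, 4 were higher in Lsd1 KO (Eif2c1, Eif2c4, Drosha and Mov10), none was lower and 5 did not pass. Over all genes tested, 11.0% were called higher and 10.3% lower, 21.3% in all. By edgeR at an unadjusted p under 0.05, 1 gene was lower (Eif2c2), and DESeq2 and limma-voom called none lower. In 5 of the 9 the genotypes did not overlap, 4 with Lsd1 KO above and 1 below (Eif2c2), as was so for 38.7% of all genes tested. The genes called higher numbered 2 when Lsd1 KO replicate 2 or Control replicate 1 was left out (Eif2c1 and Mov10), and 1 was called lower when Control replicate 3 was left out (Eif2c2). The median log2 fold change of the 9 genes was -0.20, beside -0.01 for all genes tested. All 9 passed the filter on low counts, and the lowest value of any of them in any library (1.07 CPM before TMM scaling) lay above the cutoff of 0.867 CPM, so that none entered through 1 genotype alone. In pools of oocytes, more RNA per cell and a larger share of cells that express a gene cannot be told apart.

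**Figure D1:**
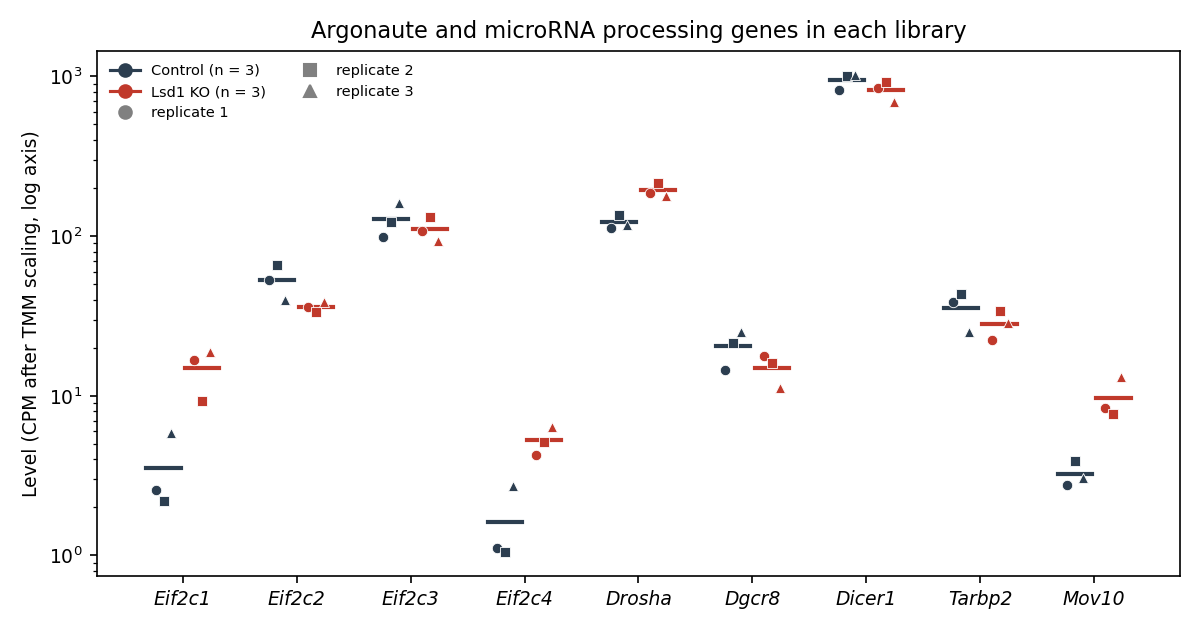
Level of each of the 9 genes in every library (CPM after TMM scaling, log axis), with Control in dark blue, Lsd1 KO in red, a marker shape for each replicate and a horizontal line at each mean. Eif2c1, Eif2c4, Drosha and Mov10 were higher in all 3 Lsd1 KO libraries than in any Control library, and Dicer1 was the most abundant of the 9, at 695 to 1026 CPM.

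Among the Argonautes Eif2c1 and Eif2c4, the less abundant pair, rose, and Eif2c2 and Eif2c3, the more abundant pair, did not pass the test. Eif2c1 was at 16.8, 9.29 and 18.7 CPM in Lsd1 KO replicates 1 to 3 and at 2.59, 2.18 and 5.87 CPM in Control replicates 1 to 3. The groups did not overlap, with the lowest Lsd1 KO value in replicate 2 and the highest Control value in replicate 3. The counts behind these values were 210, 103 and 208 against 28, 29 and 65. Eif2c1 rose 4.21-fold (log2 2.08 ± 0.42, edgeR adjusted p = 0.00531) and passed with each library left out (1.83 to 2.63).

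Eif2c4, the least abundant Argonaute, was at 4.25, 5.14 and 6.37 CPM with Lsd1 deleted and at 1.11, 1.05 and 2.71 CPM in the controls. Here too the groups did not overlap and Control replicate 3 was the highest of its group. The rise of Eif2c4 was 3.23-fold (log2 1.69 ± 0.49, edgeR adjusted p = 0.0282). It rested on 53 to 71 counts a library against 12 to 30, and the call was lost when any library but Control replicate 3 was left out (log2 1.46 to 1.86, adjusted p = 0.0503 to 0.104). Without Control replicate 3 the log2 fold change was 2.26 (adjusted p = 0.00987).

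Eif2c2, the gene of the Argonaute with cutting activity (mm9 chromosome 15, 72932055 to 73015377, minus strand), was at 36.2, 33.4 and 38.9 CPM in Lsd1 KO and at 53.4, 66.1 and 39.6 CPM in Control. Every Lsd1 KO value lay below every Control value, by a narrow gap to Control replicate 3. Among all genes tested, 19.1% had Lsd1 KO libraries wholly below Control and 19.5% wholly above. The log2 fold change of Eif2c2 was -0.55 ± 0.21 (95% interval -1.01 to -0.10, edgeR adjusted p = 0.0812) and so did not pass. Without Control replicate 3 it was -0.74 and passed (adjusted p = 0.0205). Eif2c3, the most abundant Argonaute by counts, was at 108, 132 and 93.1 CPM in Lsd1 KO and at 99.1, 122 and 161 CPM in Control. The groups overlapped and the log2 fold change of Eif2c3 was -0.20 ± 0.21 (95% interval -0.66 to 0.26, edgeR adjusted p = 0.535).

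The log2 ratio of Eif2c1 to Eif2c2 counts within a library, in which library scaling cancels, tests directly whether these Argonautes changed unequally. It was -1.10, -1.84 and -1.06 in Lsd1 KO, against Control values of -4.34, -4.90 and -2.74. All Lsd1 KO values lay above all Control values, and the means differed by 2.66, that is, 0.397 Eif2c1 counts per Eif2c2 count against 0.0628. With 1 library left out the difference was 2.21 to 3.29, the highest without Control replicate 3. An exact two-sided permutation test gave p = 0.1, the smallest that 3 samples against 3 allow (0.15 after adjustment over the 3 ratios computed), so the design cannot carry this difference past the threshold.

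To set the 4 transcripts beside each other, levels were divided by exon length. Per exon kilobase the summed Argonaute level was 13.6, 13.9 and 13.6 CPM in the Lsd1 KO libraries, against 13.1, 16.0 and 15.7 CPM in the Control libraries. The groups overlapped, and the means were 13.7 ± 0.188 and 14.9 ± 1.61 CPM per kilobase (SD, n = 3). Within that sum, Eif2c1 and Eif2c4 together made up 19.1%, 13.0% and 22.9% in Lsd1 KO, against 3.51%, 2.52% and 6.80% in the controls. Eif2c2 made up 33.1%, 29.9% and 35.7% in Lsd1 KO, against 50.8%, 51.4% and 31.3% in Control, where replicate 3 lay within the Lsd1 KO range. Eif2c3 made up 41.4% to 57.2% and 45.7% to 61.9%. These shares use merged exon lengths of the reference annotation, 16571 bases for Eif2c3 and 7569 to 8268 for the others. A shorter transcript of Eif2c3 in oocytes would raise its share. Of the 50-base words of Eif2c1 transcripts, 1.69% also occur in transcripts of Eif2c2 or Eif2c3, and none of those of Eif2c4 occur in transcripts of another protein-coding gene.

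**Figure D2:**
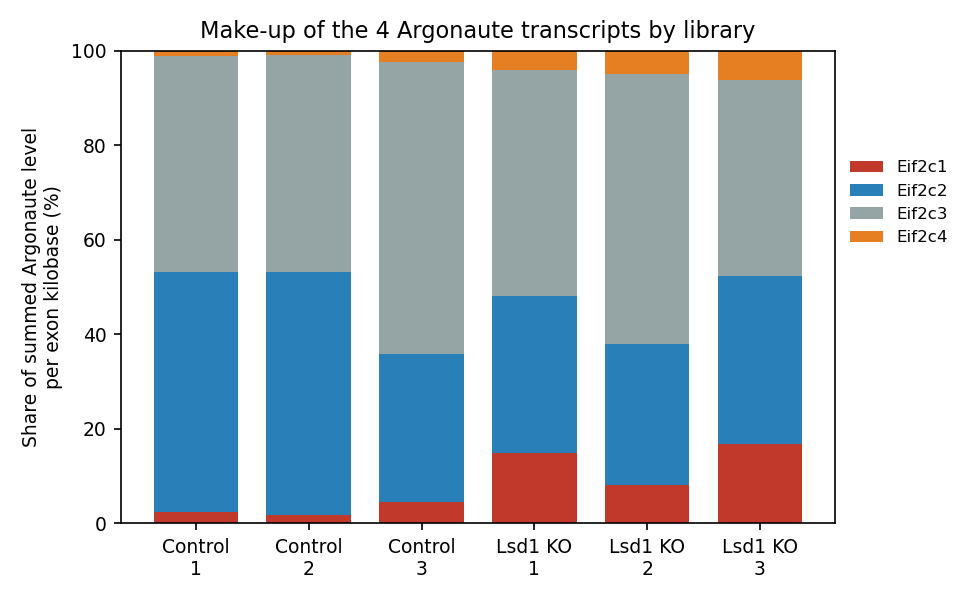
Share of the summed Argonaute level per exon kilobase (percent) taken by each of the 4 genes, 1 bar per library. Eif2c1 and Eif2c4 together take 2.52% to 6.80% in the Control libraries and 13.0% to 22.9% in the Lsd1 KO libraries, and the Eif2c2 share of Control replicate 3 (31.3%) lies within the Lsd1 KO range.

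Eif2c3, Eif2c1 and Eif2c4 lie side by side on mm9 chromosome 4, all on the minus strand, from 126008948 to 126106800, 126112256 to 126145878 and 126166785 to 126210716. The gap between Eif2c3 and Eif2c1 is 5.46 kb, and that between Eif2c1 and Eif2c4 is 20.9 kb. Eif2c1 and Eif2c4 rose and Eif2c3, their downstream neighbour, did not pass. Of 7 other measured genes from a list of neighbours, 5 were tested; 2 rose (Tekt2 and Clspn), none was lower, and 3 did not pass. By edgeR at an unadjusted p under 0.05 none was lower either, nor by DESeq2 or limma-voom. The median log2 fold change of these 5 genes was 0.28, beside -0.01 for all genes tested. Of all genes tested, 11.0% were called higher and 10.3% lower.

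Tekt2, a tektin of cilia and flagella, lies next to Eif2c3 and was at 8.66, 6.04 and 6.10 CPM in Lsd1 KO, against 0.925, 1.13 and 1.54 CPM in Control (log2 2.53 ± 0.43, edgeR adjusted p = 0.00203). Exons of Gm12945, which is not among the counted symbols, cover 20.8% of the exon bases of Tekt2 on the opposite strand. Without the strand setting of the counting, reads of Gm12945 and Tekt2 cannot be told apart there. Clspn, which encodes the checkpoint mediator claspin, lies beyond Eif2c4 and was at 193, 138 and 142 CPM in Lsd1 KO, against 60.4, 72.1 and 93.5 CPM in Control (log2 1.07 ± 0.21, edgeR adjusted p = 0.00438). Neither Tekt2 nor Clspn overlapped between genotypes, and both passed with each library left out. The most distant of the neighbours, Thrap3 (0.03 ± 0.18) and Psmb2 (-0.11 ± 0.19), did not pass. Kdm1a, the deleted gene, is on the same chromosome 9.96 Mb away (136106455 to 136158638).

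**Figure D3:**
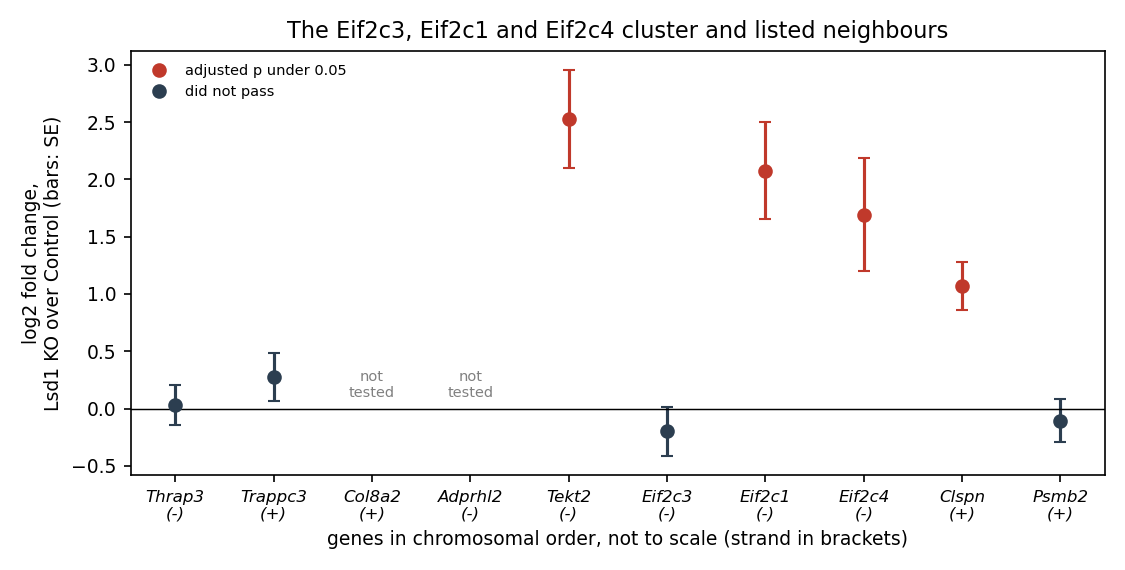
Log2 fold change (Lsd1 KO over Control, bars SE) of Eif2c3, Eif2c1 and Eif2c4 and the listed neighbours in chromosomal order, not to scale, with genes past an adjusted p of 0.05 in red. Tekt2, Eif2c1, Eif2c4 and Clspn were higher, Eif2c3 between them lay at -0.20, and Col8a2 and Adprhl2 were too low to test.

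The promoters of these 3 adjacent genes are shown because 2 of the genes rose and 1 did not. Each run is the 250 bases before the most upstream RefSeq start of the gene on GRCm38.p6, minus strand, at chr4:126468632-126468881 for Eif2c1, chr4:126533459-126533708 for Eif2c4 and chr4:126429543-126429792 for Eif2c3. Capitals mark matches on either strand to the GC box GGGCGG, the CCAAT box CCAAT and the TATA box TATAAA; matches that overlap each other are each counted.
Eif2c1: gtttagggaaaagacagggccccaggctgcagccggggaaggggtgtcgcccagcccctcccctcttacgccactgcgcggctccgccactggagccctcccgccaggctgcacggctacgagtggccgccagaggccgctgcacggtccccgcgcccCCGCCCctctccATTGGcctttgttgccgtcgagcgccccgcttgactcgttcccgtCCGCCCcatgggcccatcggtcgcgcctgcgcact
Eif2c4: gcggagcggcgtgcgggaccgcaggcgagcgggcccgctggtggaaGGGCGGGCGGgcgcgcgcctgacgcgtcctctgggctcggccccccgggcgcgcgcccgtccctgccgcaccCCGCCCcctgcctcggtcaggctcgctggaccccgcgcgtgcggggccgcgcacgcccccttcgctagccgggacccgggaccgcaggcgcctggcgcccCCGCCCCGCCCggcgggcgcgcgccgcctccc
Eif2c3: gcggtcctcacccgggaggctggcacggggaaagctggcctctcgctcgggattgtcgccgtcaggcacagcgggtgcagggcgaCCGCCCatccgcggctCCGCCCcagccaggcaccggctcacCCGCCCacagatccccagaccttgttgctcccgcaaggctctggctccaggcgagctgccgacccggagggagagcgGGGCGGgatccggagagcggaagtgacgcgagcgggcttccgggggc
These windows hold 2 GC boxes and 1 CCAAT box in Eif2c1, 5 GC boxes in Eif2c4 and 4 GC boxes in Eif2c3, and no TATA match. They are rich in CpG dinucleotides, with 26, 46 and 27, where the median of 27025 gene promoters of the same length is 6. A GC box is in 33.0% of those promoters, a CCAAT box in 34.5% and a TATA match in 13.0%. A match is a description of the sequence only.

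The nuclear step was represented by Drosha, the RNase III enzyme that makes the first cut, and Dgcr8, which recognises the hairpin. Drosha was at 187, 214 and 178 CPM in Lsd1 KO and at 113, 136 and 117 CPM in Control, with no overlap between the groups. The rise of Drosha was 1.58-fold (log2 0.66 ± 0.17, edgeR adjusted p = 0.0159). The call was lost without Lsd1 KO replicate 2 (log2 0.56, adjusted p = 0.0599) or Control replicate 1 (0.58, adjusted p = 0.0656). Dgcr8 was at 17.7, 16.1 and 11.1 CPM in Lsd1 KO and at 14.5, 21.5 and 25.2 CPM in Control. The groups overlapped and the log2 fold change of Dgcr8 was -0.44 ± 0.28 (95% interval -1.04 to 0.16, edgeR adjusted p = 0.278). Exons of Trmt2a on the opposite strand cover 11.3% of the exon bases of Dgcr8, and without the strand setting of the counting their reads cannot be told apart; Trmt2a had a mean of 12.0 CPM with Lsd1 deleted and 11.6 CPM in the controls.

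The log2 ratio of Drosha to Dgcr8 counts was 3.39, 3.72 and 4.00 in Lsd1 KO, against 2.95, 2.67 and 2.21 among controls. The values did not overlap, and the means correspond to 13.0 and 6.10 Drosha counts per Dgcr8 count. The difference of 1.10 had p = 0.1 in an exact two-sided permutation test, again the smallest possible (0.15 adjusted over 3 ratios). Drosha lies on mm9 chromosome 15 from 12754570 to 12865045, plus strand, and Dgcr8 on chromosome 16 from 18254041 to 18289342, minus strand. The 250 bases before the start of Drosha (GRCm38.p6, chr15:12824565-12824814, plus strand) are shown, marked as above, to set this gene beside the Argonautes that rose.
Drosha: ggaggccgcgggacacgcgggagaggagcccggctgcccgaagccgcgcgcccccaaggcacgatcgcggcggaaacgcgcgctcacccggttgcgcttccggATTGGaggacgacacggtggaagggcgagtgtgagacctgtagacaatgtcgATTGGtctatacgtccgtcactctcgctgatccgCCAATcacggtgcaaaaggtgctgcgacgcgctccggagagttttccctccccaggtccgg
They hold 3 CCAAT boxes, no GC box and 33 CpG dinucleotides.

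Dicer1 (mm9 chromosome 12, 105925952 to 105990162, minus strand) and its partner Tarbp2 (chromosome 15, 102348623 to 102354107, plus strand) did not pass the test, and both estimates were below 0. Dicer1 was at 851, 925 and 695 CPM in Lsd1 KO and at 819, 1004 and 1026 CPM in Control, and the groups overlapped. With 7738 to 13334 counts a library Dicer1 was the most deeply measured of the 9 genes, and it ranked at the 99.0 percentile of genes tested in Lsd1 KO and the 99.2 percentile in Control. The log2 fold change of Dicer1 was -0.21 ± 0.18 (edgeR adjusted p = 0.452), with a 95% interval of -0.60 to 0.19. Counts cover the whole gene, so the oocyte form of Dicer1, which is known to start from a retrotransposon promoter within the gene in mice, was not separated from the full-length form. Tarbp2 was at 22.4, 34.1 and 28.4 CPM in Lsd1 KO and at 38.5, 43.2 and 25.0 CPM in Control, with overlap (log2 -0.33 ± 0.24, 95% interval -0.86 to 0.20, edgeR adjusted p = 0.360).

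The ratio of Dicer1 to Tarbp2 counts overlapped between genotypes. On the log2 scale the means were 4.87 ± 0.329 in Lsd1 KO, against 4.77 ± 0.512 in Control (SD, n = 3 each), a difference of 0.10 (exact two-sided permutation p = 0.7). The ratio differed by less than the spread between replicates. Prkra, the other double-stranded RNA-binding partner of DICER, was scarce, at 2.89 to 3.77 CPM in Lsd1 KO, against 1.39 to 2.26 CPM in Control, and did not pass (log2 0.91 ± 0.47, edgeR adjusted p = 0.188).

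Mov10, an RNA helicase that associates with Argonaute proteins and restrains retrotransposons, was at 8.34, 7.67 and 13.1 CPM in Lsd1 KO and at 2.77, 3.92 and 3.07 CPM in Control. The groups did not overlap, and replicate 3 was the highest of the Lsd1 KO libraries. The rise of Mov10 was 2.98-fold (log2 1.57 ± 0.36, edgeR adjusted p = 0.00931) and passed with each library left out, with an adjusted p of up to 0.0477. Mov10 lies on mm9 chromosome 3 from 104597754 to 104621481, minus strand. Its promoter (GRCm38.p6, chr3:104818564-104818813, minus strand) is shown because it differs in composition from those of the other genes that rose.
Mov10: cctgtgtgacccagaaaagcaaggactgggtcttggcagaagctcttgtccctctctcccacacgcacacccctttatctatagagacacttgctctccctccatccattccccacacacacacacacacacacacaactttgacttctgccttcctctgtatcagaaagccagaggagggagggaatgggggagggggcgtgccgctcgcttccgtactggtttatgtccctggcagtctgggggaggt
It holds none of the 3 motifs and 5 CpG dinucleotides, and its GC content is 56.0%, against 66.4% for Drosha, 72.4% for Eif2c1 and 85.6% for Eif2c4. Eif2c2 had no entry among the RefSeq promoters.

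**Figure D4:**
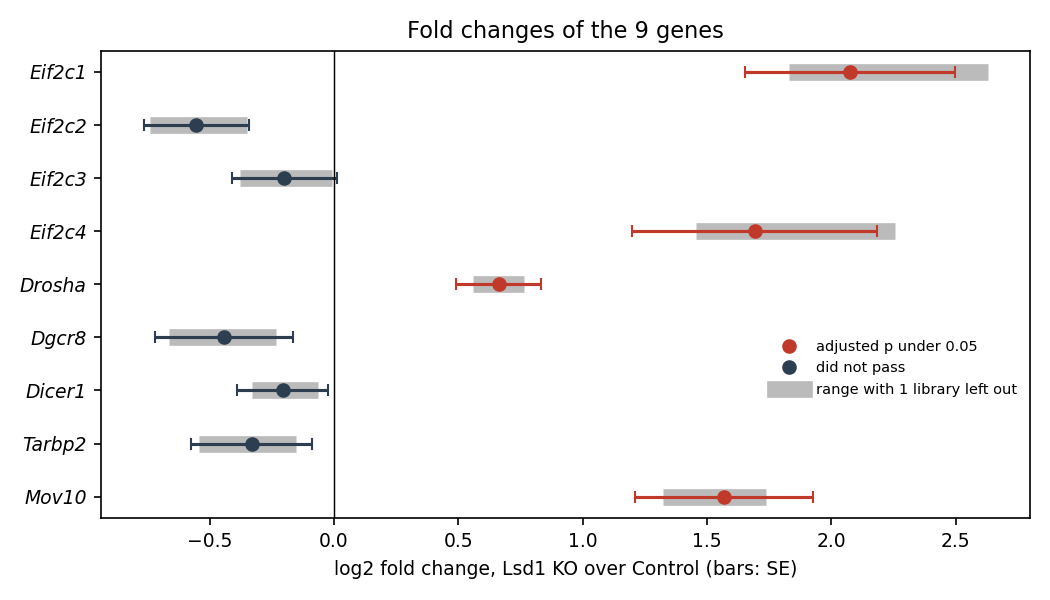
Log2 fold change of each gene, Lsd1 KO over Control, as a point with its SE; red points passed an adjusted p of 0.05, and grey bands span the estimates with each single library left out. No band crosses 0, and the widest bands belong to Eif2c1 (1.83 to 2.63) and Eif2c4 (1.46 to 2.26), which have few counts in Control.

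Per exon kilobase the order of mean levels in Control was Dicer1 (94.4 CPM), Drosha (20.5), Tarbp2 (7.82), Eif2c3 (7.69), Eif2c2 (6.60), Dgcr8 (2.80), Mov10 (0.771), Eif2c1 (0.429) and Eif2c4 (0.215). Tarbp2, Eif2c3 and Eif2c2 overlapped between libraries, and so did Mov10 with Eif2c1 and Eif2c1 with Eif2c4. In Lsd1 KO the same quantity was 81.9 for Dicer1, 32.5 for Drosha, 6.70 for Eif2c3, 6.22 for Tarbp2, 4.50 for Eif2c2, 2.30 for Mov10, 2.06 for Dgcr8, 1.81 for Eif2c1 and 0.694 for Eif2c4. There Mov10, Dgcr8 and Eif2c1 overlapped, as did Eif2c3 with Tarbp2. The genes that rose were thus Drosha, next to Dicer1 in Control level, and the 3 least abundant in Control.

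Markers of other ovarian cells were examined beside these rises. The summed level of 18 blood and immune markers, led by the lysozymes Lyz2 and Lyz1, was 182, 9.11 and 143 CPM in Lsd1 KO, against 44.2, 4.59 and 48.7 CPM in Control. It overlapped between genotypes, and the haemoglobin genes Hba-a1, Hba-a2 and Hbb-b1 were at 0 in every library. All 10 tested markers had estimates above 0 (median log2 fold change 1.76). By edgeR 1 was called higher (Cd68, which overlapped between genotypes), beside 11.0% over all genes tested. DESeq2 called 2 higher and limma-voom 0. In both genotypes replicate 2 had the lowest immune sum and the lowest Eif2c1 (9.29 and 2.18 CPM). Mov10 was also lowest in Lsd1 KO replicate 2 (7.67 CPM) and Eif2c4 in Control replicate 2 (1.05 CPM), whereas Eif2c4 was lowest in Lsd1 KO replicate 1 and Mov10 highest in Control replicate 2. Drosha, by contrast, was highest in replicate 2 of each genotype, at 214 CPM with Lsd1 deleted and 136 CPM among controls. Control replicate 3, with the highest Eif2c1 and Eif2c4 of the controls, had their highest immune sum, narrowly above Control replicate 1 (48.7 against 44.2 CPM). Lyz2 and Lyz1 were higher in Control replicate 1 (15.4 and 10.6 CPM) than in Control replicate 3 (10.9 and 5.33 CPM). Eif2c1 was lower there, at 2.59 CPM against 5.87 CPM in Control replicate 3.

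The summed level of 14 granulosa and cumulus markers was 383 to 488 CPM in Lsd1 KO, against 129 to 148 CPM in Control, so this sum moved with genotype. Cyp19a1, the aromatase, was its largest part in Lsd1 KO (239 to 405 CPM, against 28.6 to 49.2 CPM in Control). Nr5a2, a nuclear receptor, was its largest part in Control and fell (67.5 to 73.0 CPM there, 25.7 to 33.2 CPM in Lsd1 KO). Of 11 tested markers 3 were called higher (Cyp19a1, Inha and Ptgs2) and 1 lower, and 9 had estimates above 0, with a median log2 fold change of 1.35. Over all genes tested, 11.0% were called higher and 10.3% lower. Inha overlapped between genotypes (12.5 to 51.6 CPM in Lsd1 KO, 7.61 to 15.2 CPM in Control). By limma-voom 2 of these markers were called higher. The 12 remaining markers summed to 56.6 to 111 CPM in Lsd1 KO, against 25.5 to 33.0 CPM. Foxl2 (log2 1.89 ± 0.79), Fshr (1.35 ± 0.58) and Amhr2 (1.54 ± 0.71) had estimates above 0 but did not pass (edgeR adjusted p = 0.106, 0.117 and 0.144). Kitl had an estimate below 0 (-0.24 ± 0.36) and did not pass either (edgeR adjusted p = 0.668). Ptx3, of the same list, was at 0 in every library but Control replicate 1. Has2 had 2, 9 and 7 counts in Lsd1 KO, against 4, 6 and 0 in Control, and was not tested. Ptgs2 was at 14.4 to 21.2 CPM in Lsd1 KO, against 1.54 to 2.22 CPM in Control. The 9 theca, stroma and endothelial markers summed to 61.8 to 87.4 CPM against 47.1 to 58.3 CPM. Most of this sum was Pecam1 (48.1 to 78.6 CPM against 44.6 to 55.8 CPM), which did not pass. Of 3 tested markers 1 was higher (Dcn), beside 11.0% over all genes tested. Dcn was at 7.13 to 7.81 CPM in Lsd1 KO, against 0.277 to 0.603 CPM in Control (log2 4.14 ± 0.48). The other 7 markers overlapped in sum (1.71 to 5.84 CPM against 1.66 to 2.08 CPM). The part of immune, granulosa or stromal RNA in the rises of Eif2c1, Eif2c4, Drosha and Mov10 was not tested.

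The genes whose profile lay nearest to that of Eif2c1, the member with the smallest adjusted p, were Heg1, Ptges and Atf5. The root mean square differences of their centred log2 CPM from that of Eif2c1 over the 6 libraries were 0.147, 0.188 and 0.206. Heg1 was at 25.5, 11.1 and 29.3 CPM in Lsd1 KO and at 3.98, 2.79 and 7.86 CPM in Control. Like Eif2c1, all 3 genes were lowest among Lsd1 KO libraries in replicate 2 and highest among Control libraries in replicate 3. They were chosen for this likeness, which therefore is a description.

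Other genes of the pathway were read from 3 lists of 54 genes in all. Of the 52 tested, 3 were higher, 7 were lower and 42 did not pass. That is 19.2% called, beside 21.3% over the whole table (11.0% higher and 10.3% lower). The median log2 fold change was -0.12. Leaving out Lsd1 KO replicate 1 reduced the genes called lower to 2, and leaving out Control replicate 3 raised those called higher to 5.

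In nuclear processing and export, 1 of 16 tested genes was higher and none lower, beside 11.0% and 10.3% over all genes tested. None of the 16 was lower at an unadjusted p under 0.05 by edgeR, nor by DESeq2 or limma-voom. Ddx17, a DEAD-box helicase that works with the DROSHA complex, rose from 25.6, 25.8 and 32.5 CPM in Control to 53.5, 50.3 and 49.0 CPM without Lsd1 (log2 0.86 ± 0.19, edgeR adjusted p = 0.00695). Ddx17 passed with each library left out. Its close relative Ddx5 did not pass (-0.22 ± 0.17), nor did the hairpin exporter Xpo5 (-0.04 ± 0.19), Lin28a (-0.23 ± 0.25) or Lin28b (-0.46 ± 0.23), which bind let-7 precursors.

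The list of Dicer partners and of chaperones tied to the loading of Argonautes, which also held Tsn and Adarb2, had 11 tested genes. Of these, 4 were lower (10.3% over all genes tested) and none was higher (11.0%). At an unadjusted p under 0.05 edgeR had 1 higher (Fkbp5), and DESeq2 and limma-voom each called 1 higher. All 4 genes that fell are heat shock chaperones or their partners, which serve many other client proteins. Hspa4 fell from 621 to 729 CPM in Control to 345 to 398 CPM without Lsd1 (log2 -0.85 ± 0.17, edgeR adjusted p = 0.00454), and passed with each library left out. Hspa8, the constitutive HSC70, fell from 1280 to 1628 CPM to 826 to 930 CPM (-0.71 ± 0.17). Hsp90aa1 fell from 3855 to 4731 CPM to 2297 to 2804 CPM (-0.69 ± 0.18), and the co-chaperone Fkbp4 from 19.1 to 25.1 CPM to 8.02 to 12.7 CPM (-1.11 ± 0.26). Without Lsd1 KO replicate 1, Hspa8 (adjusted p = 0.0631), Fkbp4 (0.0544) and Hsp90aa1 did not pass, and Hsp90aa1 did not pass without Control replicate 1 either (up to 0.108). Hsp90ab1, the other cytosolic HSP90, did not pass (0.23 ± 0.16).

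In the silencing complex and the decay machinery it recruits, 2 of 25 tested genes were higher and 3 lower. The shares over all genes tested were 11.0% higher and 10.3% lower. Fxr2, an RNA-binding relative of the fragile X protein, rose from 35.7, 41.6 and 62.6 CPM to 91.9, 110.5 and 78.6 CPM (log2 1.01 ± 0.23, edgeR adjusted p = 0.00936). The decapping scaffold Edc4 rose from 137 to 172 CPM to 222 to 276 CPM (0.69 ± 0.17). Fmr1, the fragile X gene, fell from 33.4 to 44.2 CPM to 18.7 to 26.2 CPM (-0.83 ± 0.21), and the helicase Ddx20 from 11.7 to 16.5 CPM to 5.66 to 7.78 CPM (-1.07 ± 0.29). Tnrc6c, a GW182 protein named after its values were seen, fell from 144 to 258 CPM to 129 to 132 CPM (-0.63 ± 0.21, edgeR adjusted p = 0.0477), and its relatives Tnrc6a (-0.32 ± 0.22) and Tnrc6b (-0.55 ± 0.22) did not pass. Fxr2 passed with each library left out. The call of Edc4 was lost when replicate 1 of either genotype was left out (adjusted p at most 0.0643), that of Fmr1 without Lsd1 KO replicate 1 or Control replicate 2 (at most 0.0844), and that of Ddx20 without Lsd1 KO replicate 3 or Control replicate 1 or 2 (at most 0.0903). Tnrc6c passed only without Control replicate 1 among these fits (at most 0.137) and in 4 of 9 other alternatives.

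**Figure D5:**
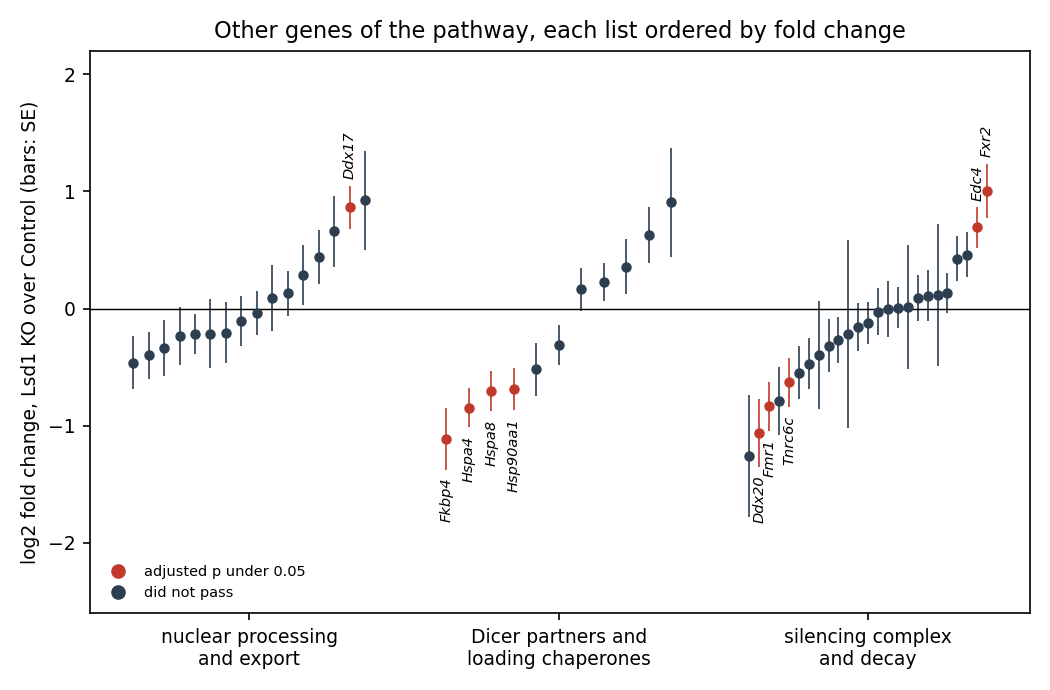
Log2 fold change (Lsd1 KO over Control, bars SE) of the 52 tested genes of the 3 pathway lists, ordered within each list, with genes past an adjusted p of 0.05 in red and named. The chaperones Fkbp4, Hspa4, Hspa8 and Hsp90aa1 lie between -1.11 and -0.69, and Edc4, Ddx17 and Fxr2 between 0.69 and 1.01.

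A list of 6 transcripts that earlier work matched with endogenous small interfering RNAs of mouse oocytes was also read. Of these, 1 was higher (11.0% over all genes tested), 5 did not pass and none was lower (10.3%). By edgeR at an unadjusted p under 0.05, 1 of the 6 was lower, and DESeq2 and limma-voom called none lower. Rangap1, the activator of the RAN GTPase, was at 18.8, 20.4 and 18.9 CPM in Lsd1 KO, against 10.8, 12.0 and 12.3 CPM in Control (log2 0.72 ± 0.23, edgeR adjusted p = 0.0428). Rangap1 lost the call with any single library left out (adjusted p up to 0.127). Ppp4r1 (-0.29 ± 0.19), Pdzd11 (-0.44 ± 0.19), Hdac1 (0.53 ± 0.26), Kif4 (-0.04 ± 0.17) and Ppid (-0.37 ± 0.19) did not pass, and the median of the 6 genes was -0.16.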

How the data were processed

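Per the labels' protocols, each sample of 100 oocytes was lysed directly, its RNA was amplified with a NuGEN Ovation kit, and paired-end TruSeq libraries were made. The authors deposited 1 table of raw read counts per gene symbol for each sample. Of tools, CASAVA 1.8.2 and also TopHat2 2.0.7 and HTSeq 0.5.3p9 are listed, with the build mm9, per the submitters' processing notes; which annotation, options and strand setting were used was not given in the sources used here. Positions and merged exon lengths were read from the GENCODE M1 annotation (NCBIM37, that is mm9), and promoters from RefSeq on GRCm38.p6 (8 of the 9 genes matched).

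Genes were kept by filterByExpr of edgeR 4.0.16 (minimum count 10), which left 12935, scaled by TMM and tested between genotypes with the quasi-likelihood F test in R 4.3.3, two-sided, Benjamini-Hochberg adjusted over all genes tested, with a threshold of 0.05. SE were derived from the test statistic, and 95% intervals, not adjusted, from the SE. Ratios used counts + 0.5 and an exact permutation test (scipy 1.17.1). Replicates of 1 genotype differed by more than counting noise (chi-square per degree of freedom 19.8 to 43.6); the series calls them biological, and p-values assume that they are independent.

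Alternatives were DESeq2 1.42.0, limma-voom (limma 3.58.1), other scalings and filters, a replicate block, each library left out and, added after seeing the data, a correction for exon length. The members, lists and tests were chosen with earlier results of these data known. Named are all 9 genes, Kdm1a, in each list up to 4 genes past the threshold, neighbours past the threshold, the 3 genes most like Eif2c1, the 3 microRNA symbols with the highest counts and the 2 most abundant markers of each cell type. Of 54 pathway genes all were in the files; 1 of 8 neighbours was not matched. Other genes were named after their values were seen.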

Additional observations from a re-analysis of the deposited data

How the results depend on the processing

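With 1 library left out, the number of the 9 genes called higher was 2 to 4 and lower 0 to 1, and the number of all genes called was 932 (without Control replicate 1) to 1466 higher and 638 (without Lsd1 KO replicate 1) to 1346 lower, with 727 lower once Lsd1 KO replicate 3 was omitted and 781 once Control replicate 2 was. Log2 fold changes in those fits were 1.46 to 2.26 for Eif2c4, 0.56 to 0.77 for Drosha and -0.74 to -0.35 for Eif2c2; Eif2c1 and Mov10 passed in all 6. The pathway lists had 2 to 5 higher and 2 to 9 lower, the transcripts matched with endogenous small interfering RNAs 0 to 0 higher, and the neighbours of the Argonaute cluster 2 to 2. The difference in the Dicer1 to Tarbp2 ratio was -0.08 to 0.40 and changed sign without Lsd1 KO replicate 1 (-0.0821), Control replicate 1 (-0.0758) or Control replicate 2 (-0.0116). A filter of 10 CPM in 3 libraries removes Eif2c1, Eif2c4 and Mov10 and so left 1 of the 9 called higher (Drosha); it gave 5 pathway genes higher and 1 neighbour. With no filter, 0 transcripts matched with small interfering RNAs were higher. The length correction gave 6 pathway genes higher and 1 small-RNA-matched transcript lower; the cause was not tested. Under the other scalings, DESeq2 and limma-voom the 9 genes kept their direction and the 4 calls held.

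Across genes, same-numbered libraries deviated together no more than differently numbered ones (r = -0.03, 0.11 and -0.02, against -0.10 to 0.13). The numbers are therefore not taken as pairs, although replicate 2 had the lowest immune marker sum in both genotypes. With a replicate block, 1270 genes were higher and 1098 lower, the same 4 of the 9 genes were higher, and 0 of the transcripts matched with small interfering RNAs were higher. Paired by number, the exact sign-flip test of the Eif2c1 to Eif2c2 ratio gave p = 0.25, the smallest that 3 pairs allow. Depth limits Eif2c4 most, at 12 to 30 counts in the Control libraries.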

Other observations

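The count tables also list 622 symbols of microRNA genes. Of these, 66 had a count in at least 1 library, and their counts summed to 119, 132 and 99 in Lsd1 KO, against 105, 94 and 95 in the controls. The libraries were not made from size-selected small RNA, per the protocols in the labels, and these counts are not levels of mature microRNAs. Only 2 symbols were abundant enough to test. Mir684-1 had 48, 72 and 24 counts in Lsd1 KO, against 14, 12 and 32 in Control (log2 1.30 ± 0.58, edgeR adjusted p = 0.130). Mir703 had 16, 12 and 13 counts against 5, 6 and 6 (log2 1.26 ± 0.66, edgeR adjusted p = 0.194). Neither passed. Mir1983 had 0, 1 and 0 counts in Lsd1 KO, against 33, 13 and 2 in Control and was not tested. Mir1306, whose hairpin lies within an exon of Dgcr8 on the same strand, was at 0 in every library. How reads shared between genes were counted was not given, so this 0 says nothing of its level.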
